A study of Mus musculus with 3 samples.

Results

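Expression of 10 genes of endothelial cells and of the vascular endothelial growth factor (VEGF) system was followed in mouse cardiomyocyte preparations of 3 ages. The genes were the growth factor gene Vegfa, its receptor genes Kdr and Flt1, the angiopoietin receptor genes Tek and Tie1, the adhesion genes Pecam1, Cdh5 and Esam, the secreted factor gene Egfl7 and the co-receptor gene Eng. They were found through the gene name that the array's raw table gives each probe, which matched 17 of 46632 probes and so all 10 genes of 20973 named on the array. Of these genes, 5 had 1 probe and 5 had several.

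The 3 groups were embryonic hearts of day 11 to 12, neonatal hearts of day 3 to 4 after birth and adult hearts of at least 10 weeks. All carried the strain label eGFP α-MHC on DBA, which names a green fluorescent reporter with α-myosin heavy chain, a protein of the heart muscle cell. Hearts were digested to single cells for sorting, RNA of several hearts was pooled, and the sort gate was not known. Each age was measured on 1 Illumina bead array, so no difference below has a replicate, no test was possible and no p-value is given.

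The VEGF and angiopoietin systems are the main receptor kinase pathways of blood vessels. VEGF-A binds the receptors encoded by Kdr, which carries most of its growth signal, and Flt1, which binds it tightly and can act as a trap. Angiopoietins bind Tie2, the product of Tek, whose relative Tie1 tunes that signal, and VE-cadherin, PECAM-1 and ESAM hold endothelial cells together. In the heart, muscle cells make VEGF-A and the endothelium of capillaries and endocardium carries the receptors.

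The stretches ahead of a transcript start are shown for a gene that was bright only after birth (Eng), one that was dimmer in the adult array (Egfl7) and the ligand gene (Vegfa), as the values below describe. They are the 250 bases before the start in RefSeq on GRCm38.p6, written 5′ to 3′ along the gene, with capitals on AGGAAG or its complement CTTCCT, a form of the binding motif of ETS factors, a family active in endothelial genes.
Eng, chr2:32646345-32646594, plus strand: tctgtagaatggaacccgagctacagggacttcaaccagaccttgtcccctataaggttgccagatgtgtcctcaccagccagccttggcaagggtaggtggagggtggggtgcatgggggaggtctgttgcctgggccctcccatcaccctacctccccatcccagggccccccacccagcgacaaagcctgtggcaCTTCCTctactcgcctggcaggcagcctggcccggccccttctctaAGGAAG
Egfl7, chr2:26580833-26581082, plus strand: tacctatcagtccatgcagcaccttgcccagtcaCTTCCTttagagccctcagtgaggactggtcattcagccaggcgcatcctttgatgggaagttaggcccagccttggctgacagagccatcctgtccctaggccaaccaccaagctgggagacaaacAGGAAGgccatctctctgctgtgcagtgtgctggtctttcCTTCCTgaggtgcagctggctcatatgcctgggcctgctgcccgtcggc
Vegfa, chr17:46032378-46032627, minus strand: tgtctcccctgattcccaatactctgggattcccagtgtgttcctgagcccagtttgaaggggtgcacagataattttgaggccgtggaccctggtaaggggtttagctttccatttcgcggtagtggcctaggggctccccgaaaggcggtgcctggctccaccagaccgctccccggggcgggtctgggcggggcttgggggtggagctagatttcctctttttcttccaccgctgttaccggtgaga
The motif occurred 2 times ahead of Eng, 3 times ahead of this Egfl7 start and 0 times ahead of Vegfa. Of 32851 such windows of mouse genes, 29.5% held it at least 1 time and 6.25% at least 2 times. The windows of Flt1 and Tie1 held it 2 and 1 times, and those of Kdr and Tek 0 times. Unlike the printed windows, those of Flt1, Kdr and Tek lie ahead of a transcript start other than the first annotated start of the gene. Other Egfl7 starts held the motif 1 and 0 times. Its shorter core, GGAA or the complement, occurred 3, 5 and 6 times in the printed windows of Eng, Egfl7 and Vegfa. Of all windows, 93.4% held this core, so the contrast with Vegfa depends on the motif form chosen. The table matched 7 of the 10 genes, and Pecam1, Cdh5 and Esam were not matched. A match of letters is a description and not a binding site.

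Values below are log2 intensities after background correction and quantile normalization over the 3 arrays. A value after ± is the standard error from the spread between the beads of a probe. It covers the precision of 1 array and leaves out animals, preparations and hybridisations. A probe counted as detected at a detection p under 0.01, and a gene as higher or lower where the log2 difference was at least 1, which is 2-fold, provided that either array detected it. Where a probe was detected by only one of them, the dim side was raised to the lowest value detected on that array, if it lay below it, and the difference is written as "at least". A bound that then turned against the detected side was set to 0, and its gene still counted as measured. The arrays detected between 30.2% and 32.9% of all probes, with median raw signals between 57.3 and 77.6. Member probes were read from 12 to 69 beads.

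Of the 17 probes, 5 passed detection on the embryonic, 11 on the neonatal and 10 on the adult array. By their brightest probe, the embryonic array found 4 of the 10 genes, the neonatal array 9 and the adult one 8. The probes detected on every array numbered 4, for Vegfa, Kdr, Esam and Egfl7, and 5 probes were detected on none.

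Vegfa, the ligand, was bright at every age. Its probe read 11.87 in the embryonic array, 11.16 in the neonatal array and 11.17 in the adult one. The embryonic value was the highest, and the later arrays lay within bead error of each other after quantile normalization, whereas adult minus neonatal was -0.90 when arrays were centred on their medians. The neonatal minus embryonic difference was -0.70 ± 0.10 and the adult minus embryonic difference -0.70 ± 0.13, both under 2-fold. With that median centring the adult minus embryonic difference was -1.48, while the median of all measured genes moved by -0.53 under that scaling.

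Kdr, for the main signalling receptor of VEGF-A, stayed level. Its brighter probe, keyed in the file to a RIKEN clone, read 6.86 in the embryonic array and 6.87 in both the neonatal and the adult array. All differences between ages were 0.00, with bead errors of 0.16 to 0.18, but with median centring the adult minus neonatal difference was -0.54. The other probe, keyed to the RefSeq mRNA of Kdr, was not detected on any array, at 4.72, 4.57 and 4.74. The level pattern therefore rests on 1 dim probe with raw signals of 160.8, 204.1 and 116.9, and the part of the gene it reads is not given in the files.

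Flt1, for the high-affinity VEGF receptor, was detected only after birth. Its brighter probe read 5.42 in the embryonic array, where it was not detected, 8.06 in the neonatal array and 8.19 in the adult one. The neonatal array was at least 3.45-fold above the embryonic array and the adult array at least 3.76-fold. The adult minus neonatal difference was 0.13 ± 0.11, and -0.60 with median centring. Another probe of Flt1 was not detected at any age, with values between 4.55 and 4.68.

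Of the angiopoietin receptors, Tek was among the members that differed most and Tie1 was not seen. Tek read 5.97 in the embryonic array, undetected there at a detection p of 0.01372, 10.71 in the neonatal array and 11.37 in the adult one. The neonatal array was at least 21.7-fold above the embryonic array and the adult array at least 34.3-fold. This probe was read from 16, 12 and 13 beads on the embryonic, neonatal and adult arrays, the fewest of the 17 probes on each array. The adult minus neonatal difference was 0.66 ± 0.17, and -0.24 with median centring. The only Tie1 probe was near background at every age, at 4.62, 4.63 and 4.58, so its lack of signal sets no level for the transcript.

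**Figure D1:**
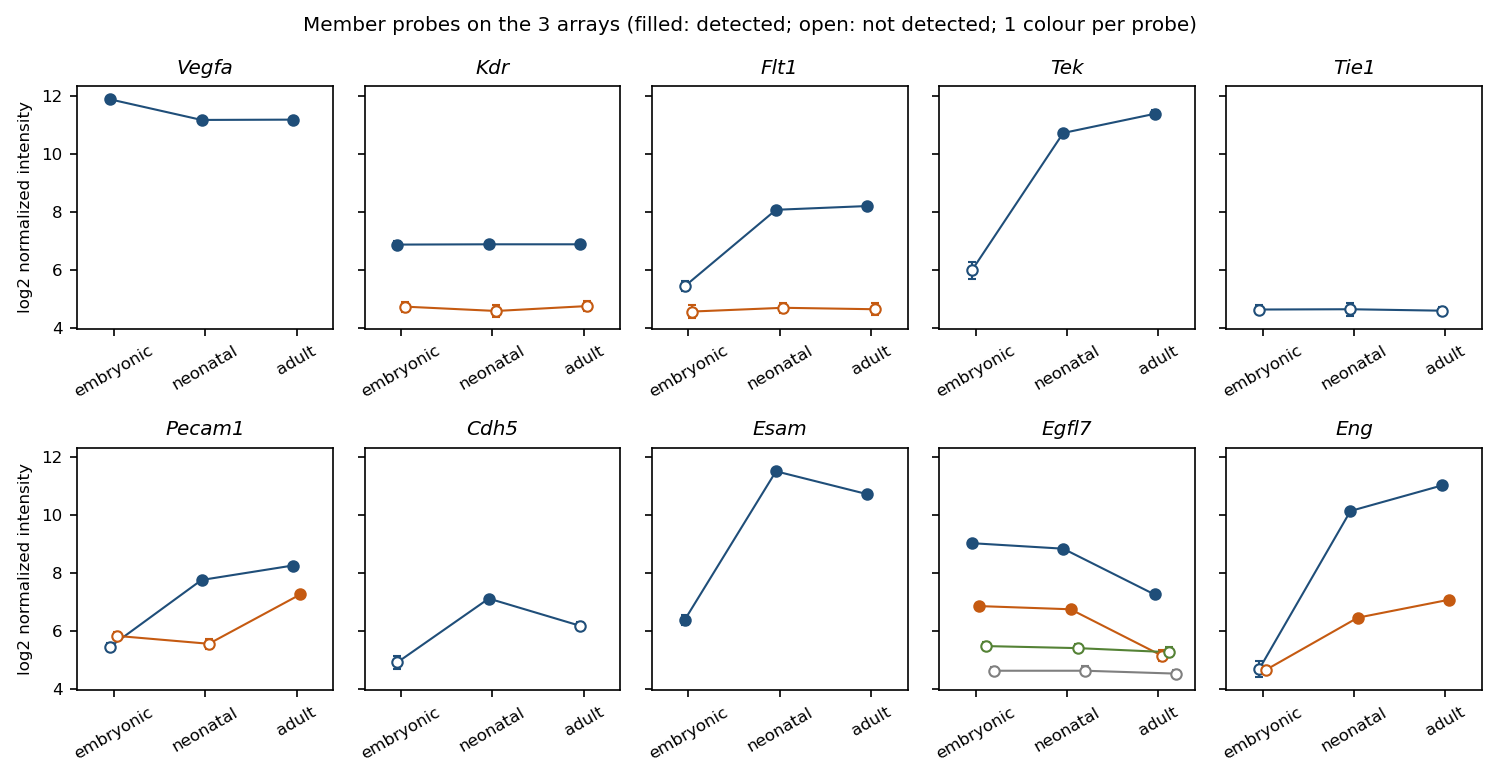
Log2 normalized intensity (vertical axis) of all 17 probes of the 10 genes on the embryonic, neonatal and adult array, with 1 panel per gene, 1 colour per probe and bead standard errors as bars. Filled points were detected and open points were not; Tek, Esam and the brighter Eng probe climb by over 3 log2 units between the embryonic array and the later arrays, whereas Kdr is level and Tie1 is open throughout.

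The adhesion genes did not share a single pattern. Esam, for an immunoglobulin-type adhesion molecule of endothelial junctions, read 6.38 in the embryonic array, 11.51 in the neonatal array and 10.72 in the adult one and was detected on all of them, the embryonic detection p of 0.00936 being just inside the threshold. It was 34.9-fold higher in the neonatal than in the embryonic array (5.13 ± 0.19) and 20.3-fold higher in the adult than in the embryonic array (4.34 ± 0.19). The adult value lay below the neonatal value by more than bead error, at -0.78 ± 0.07, and at -1.66 with median centring.

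Cdh5, for VE-cadherin, the cadherin of endothelial junctions, was dim. It read 4.92 in the embryonic array, 7.12 in the neonatal array and 6.18 in the adult one and passed detection in the neonatal array alone, with an adult detection p of 0.01123. The neonatal array was at least 1.80-fold above the embryonic array, which is short of 2-fold, and at least 2-fold above it with median centring or a detection p under 0.05. Its adult value could not be set against the embryonic value, since neither was detected.

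The 2 probes of Pecam1, for an adhesion molecule of endothelium that platelets and leukocytes carry too, disagreed on the neonatal array. The brighter probe read 5.46 in the embryonic array, undetected, 7.76 in the neonatal array and 8.26 in the adult one. By this probe the neonatal array was at least 2.80-fold and the adult array at least 3.95-fold above the embryonic array. The dimmer probe read 5.83, 5.56 and 7.26 and was detected in the adult array alone, where it was at least 2.51-fold above the neonatal array, a bound that fell under 2-fold with median centring, at 0.79 on the log2 scale. The adult minus neonatal difference of the brighter probe was 0.50 ± 0.12, and -0.24 with median centring. After quantile normalization both probes were highest in the adult array, and which transcripts each reads was not examined.

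Egfl7, a factor secreted by endothelial cells into the matrix around vessels, ran the other way. Its brightest probe, for transcript variant c, read 9.03 in the embryonic array, 8.84 in the neonatal array and 7.26 in the adult one. It was 2.98-fold lower in the adult than in the neonatal array (-1.58 ± 0.08) and 3.41-fold lower in the adult than in the embryonic array (-1.77 ± 0.08). The neonatal minus embryonic difference was -0.19 ± 0.06. A probe that the file describes as variant a read 6.86, 6.75 and 5.15 and was not detected in the adult array, where the bounded difference from the neonatal array was at least 1.41-fold. Both detected probes were thus dimmest in the adult array, and the other 2 probes, which carry the same description with another transcript as key, were detected at no age.

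Eng encodes endoglin, a co-receptor for BMP9 and TGFβ on endothelium that mesenchymal cells and some macrophages also carry. Its brighter probe read 4.68 in the embryonic array, at background, 10.14 in the neonatal array and 11.02 in the adult one. The neonatal array was at least 14.6-fold above the embryonic array and the adult array at least 26.9-fold. The dimmer probe read 4.67, 6.46 and 7.08, with the same order of ages and bounds of at least 1.14-fold and 1.75-fold. The adult minus neonatal differences of the brighter and the dimmer probe were 0.88 ± 0.12 and 0.62 ± 0.10 after quantile normalization, and -0.02 and 0.06 with median centring. Raw signals of the brighter probe ran 59.3, 1582.8 and 1210.4, so the adult array was below the neonatal array before normalization.

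Set together, the neonatal against embryonic comparison counted 5 of its 9 measured members as 2-fold or more higher and 0 as lower, where 34.8% of 10559 measured genes were called in either direction and 17.6% were higher. Of these 5, Flt1, Tek, Pecam1 and Eng passed the detection filter only through the neonatal array, so that their entry into the count required a higher neonatal value. Among the 4 members detected on both arrays, Esam was higher and Vegfa, Kdr and Egfl7 were within 2-fold. The members' median of 1.48, against -0.05 over all measured genes, includes those bounds. In adult against neonatal, 0 of 9 members were higher and 1, Egfl7, was lower, where 21.8% of 10403 genes were called and 10.7% were lower. The members' median was 0.01, against -0.06 over all genes. In adult against embryonic, 5 of 8 were higher and 1 lower, where 44.3% of 10541 genes were called and 21.4% were higher. Flt1, Tek, Pecam1 and Eng again entered through the later array alone, and of the 4 members detected on both arrays 1, Esam, was higher and 1, Egfl7, lower. The adult array serves in both of its comparisons, and the embryonic array likewise, so the 3 counts are not independent.

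**Figure D2:**
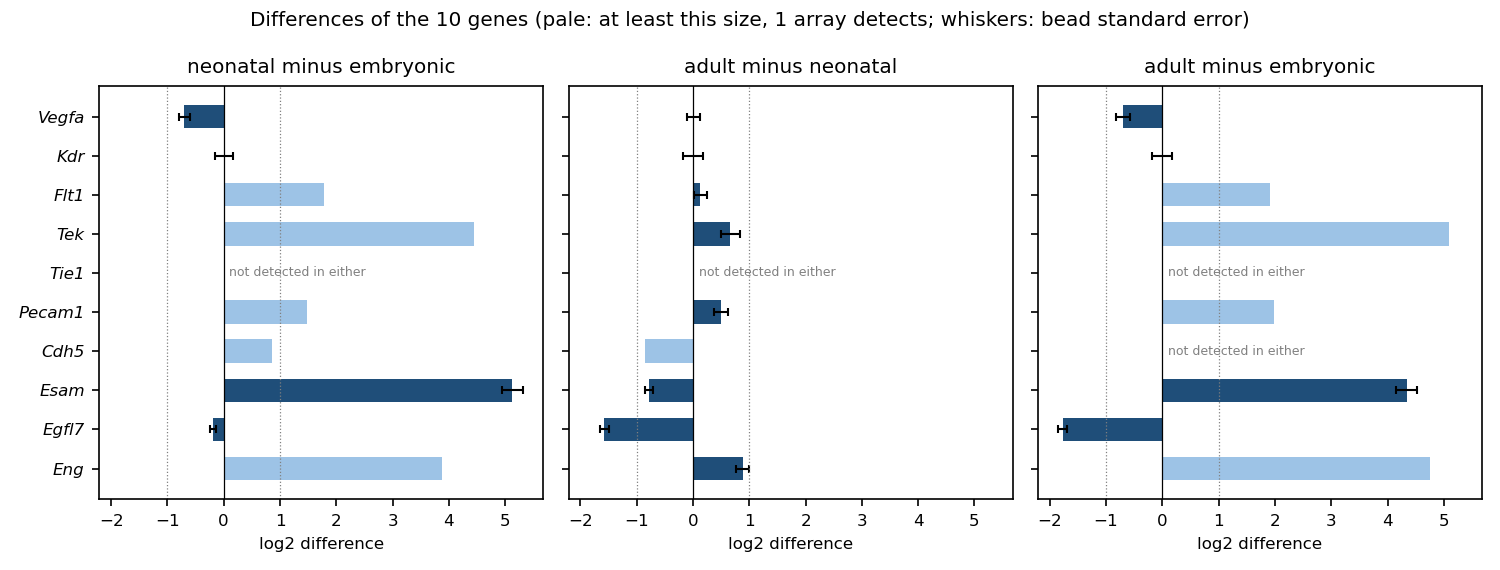
Log2 differences (horizontal axis) of the 10 genes by their brightest probe, in neonatal minus embryonic, adult minus neonatal and adult minus embryonic. Pale bars are bounds where only 1 array detected the gene, whiskers are bead standard errors and dotted lines mark 2-fold. Esam is the only gene with a dark bar past the upper dotted line, and Egfl7 the only gene with a bar past the lower one.

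The arrays also differed in transcripts of other heart cells, and in pooled RNA fewer cells of a type and less RNA per cell cannot be told apart. Of 15 cardiomyocyte markers, the embryonic, neonatal and adult arrays detected 15, 15 and 11, with summed normalized intensities of 265000, 142000 and 6990. Myh6, Ttn, Nkx2-5 and Mybpc3 were the ones not detected in the adult array. Of 15 fibroblast markers the arrays detected 7, 14 and 14, with sums of 20400, 171000 and 187000. Of 16 macrophage markers they detected 3, 13 and 14, with sums of 1090, 22000 and 49100. Of 12 smooth muscle and pericyte markers they detected 7, 11 and 10, with sums of 23500, 40100 and 32600. Tcf21 was at background on every array among fibroblast markers, and Cd163 and Itgam among macrophage markers. The sums of the fibroblast, macrophage and mural markers were lowest in the embryonic array, where Flt1, Tek, Pecam1 and Eng were undetected, and their part in those differences was not tested. Of 7 platelet markers 2 were detected on each array, but not the same 2. Pf4 was detected on all of them, at 7.86, 11.95 and 11.31. Ppbp was detected in the embryonic array alone, at 6.59, 5.64 and 6.07. Gp1bb was detected in the later arrays alone, at 5.59, 8.23 and 8.05. The part of platelets in the Pecam1 values was not tested.

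Among the other ligands and receptors of the VEGF family, the ligand genes went in different directions. Vegfb, which binds Flt1, read 12.60, 11.53 and 11.05 on the embryonic, neonatal and adult arrays and was lower by -1.07 in neonatal minus embryonic. Vegfd, a ligand linked to lymphatic vessels, read 6.92, 9.78 and 10.00, and was 7.27-fold higher in the neonatal than in the embryonic array. Pgf, for placental growth factor, another Flt1 ligand, read 6.43, 9.33 and 9.36 and was 7.45-fold higher. Both of these were detected on all arrays, and neither differed 2-fold between the adult and the neonatal array. Vegfc stayed within 2-fold in every pair. Flt4, the VEGF-C receptor of lymphatic endothelium, read 7.71, 7.83 and 7.94 and was level like Kdr. The neuropilin co-receptor gene Nrp1 read 12.13, 13.03 and 13.48. Nrp2 was higher by 1.57 ± 0.13 in adult minus neonatal.

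The angiopoietins, the ligands of Tie2, differed in opposite senses between the embryonic and neonatal arrays. Angpt1, the activating ligand, read 9.07 in the embryonic array, 5.36 in the neonatal array, undetected, and 7.43 in the adult array. It was at least 8.80-fold lower in the neonatal than in the embryonic array, and at least 2.82-fold higher in the adult than in the neonatal array. Angpt2, which can oppose it, read 7.14, 10.03 and 8.06, the highest value being neonatal. It was 7.42-fold higher in the neonatal than in the embryonic array and 3.92-fold lower in the adult than in the neonatal array. Ptprb, the phosphatase VE-PTP that acts on Tie2 and VE-cadherin, read 5.42, undetected, 10.56 and 9.62. It was at least 19.5-fold higher in the neonatal than in the embryonic array.

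Over the 24 genes of this pathway list, 6 of 19 measured were higher and 5 lower in the neonatal than in the embryonic array, where 17.6% of all measured genes were higher and 17.2% lower. Of the 19 values, 5 were bounds, and the median was 0.54. Between the adult and the neonatal array 4 of 18 were higher and 3 lower, against 11.1% and 10.7% of all measured genes. With median centring the median of all measured genes moved by -0.73 in this pair. Counts in this pair therefore depend on the scaling, here and for the lists below, as do the adult calls of Nrp2, Angpt1 and Egln1. The list's median was 0.05. The oxygen sensing genes in it differed from each other. Egln1, a prolyl hydroxylase that marks HIF for decay, was lower by -1.76 in neonatal minus embryonic and higher by 1.41 in adult minus neonatal, while its relative Egln3 differed by 1.47 and -1.19. Probes of Hif1a, Epas1, Nos3 and Plcg1 were detected on no array.

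**Figure D3:**
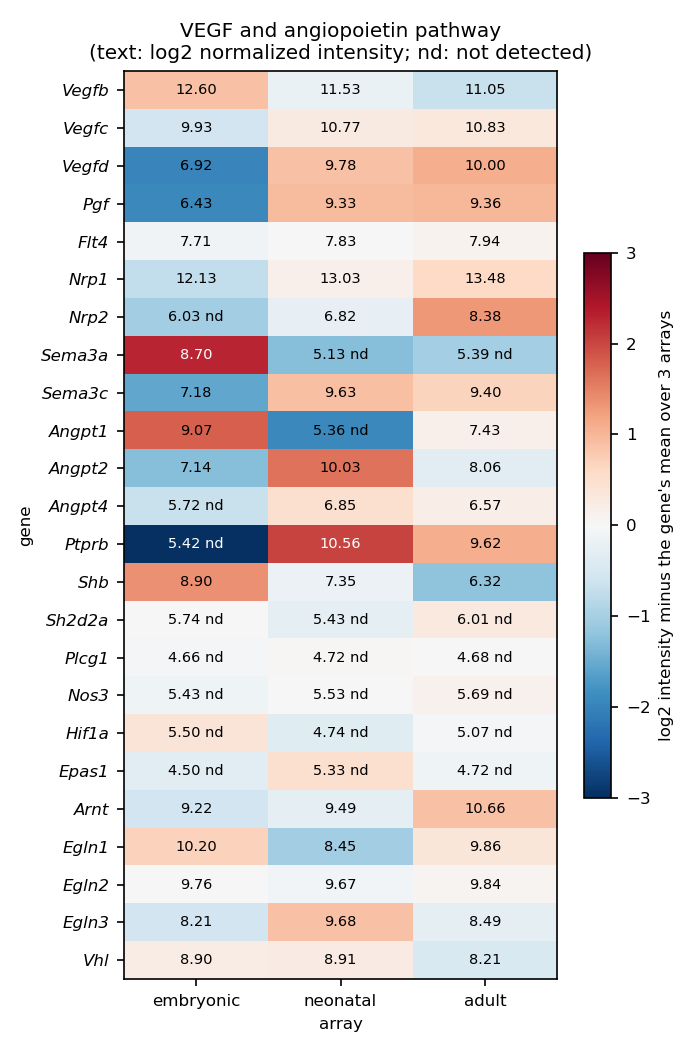
Log2 normalized intensity of the 24 genes of the VEGF and angiopoietin pathway list in the embryonic, neonatal and adult array, printed in each cell, with colour for the distance from the gene's mean over the 3 arrays. Angpt1 is red and Angpt2 blue in the embryonic array, with the colours exchanged in the neonatal array, and Flt4 is pale in all of them.

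A wider list of 35 endothelial genes was described in the same way. In neonatal against embryonic, 9 of 22 measured genes were higher and 0 lower, where 17.6% of all measured genes were higher. Of the 22, 13 were detected in only the neonatal array of the pair, so their entry into the count required a high neonatal value. Ramp2, for a partner of the adrenomedullin receptor, was detected on all arrays at 7.49, 13.90 and 13.53, and was 84.7-fold higher in the neonatal than in the embryonic array. Cd34, a sialomucin of endothelium and of progenitor and stromal cells, read 5.06, undetected, 12.43 and 13.12 and was at least 71.2-fold higher. Cd93, a receptor of endothelial and myeloid cells, was at least 24.4-fold higher, and Fli1, for an ETS factor, differed by at least 2.99 on the log2 scale. Vwf, for von Willebrand factor, stayed dim at 5.85, 6.16 and 6.57. Of the 35 genes, the embryonic, neonatal and adult arrays detected 9, 22 and 20. Erg, Calcrl and S1pr1 were among those detected on no array. Between the adult and the neonatal array, 4 of 23 were higher and 5 lower, against 11.1% and 10.7% of all measured genes. Plvap, for the diaphragm protein of fenestrated endothelium, was at least 9.43-fold higher in the adult array. The tight junction gene Cldn5 differed by -2.06 and Mcam, an adhesion gene of endothelial and mural cells, by -2.11. Robo4, a guidance receptor of endothelium, was detected in the embryonic and neonatal arrays at 8.04 and 7.41 and not in the adult array, at 5.81.

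Several genes that act with endoglin were higher in the neonatal array. Of 9 measured on the array, 6 were higher and 0 lower in the neonatal than in the embryonic array, where 17.6% of all measured genes were higher, and Acvrl1 and Tgfb1 entered through the neonatal array alone. Between the adult and the neonatal array 3 of the 9 were higher and 0 lower, where 11.1% of all measured genes were higher. These were Acvrl1, Tgfbr2 and Id3, by 1.31, 1.09 and 1.03 after quantile normalization. With median centring the median of all measured genes moved by -0.73 in this pair, so these calls depend on the scaling. Acvrl1, the endothelial receptor ALK1 that endoglin assists, read 4.56, undetected, 8.68 and 9.99, and was at least 5.29-fold higher in the neonatal than in the embryonic array. Tgfbr2, the TGFβ receptor that fibroblasts express too, read 7.62, 12.46 and 13.55. Id3, a transcriptional target of BMP signals, was higher by 2.12 and then by 1.03. Smad5, a transducer, stayed within 2-fold in every pair.

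Partners of VE-cadherin at the junction differed in both directions. The catenin genes Ctnna1, Ctnnb1 and Ctnnd1, which are used by many cell types, differed by at most 0.60 in size in any pair. Jam2, a junctional adhesion molecule, read 5.01, undetected, 9.25 and 9.65 and was at least 7.88-fold higher in the neonatal than in the embryonic array. Of 11 measured junction genes 5 were higher and 1 lower in that pair, where 34.8% of all measured genes were called, and 3 of the values were bounds. Arterial and venous genes were higher in 3 and lower in 2 of 8 measured in neonatal against embryonic. In that pair 17.6% of all measured genes were higher and 17.2% lower. In adult against neonatal 5 of 8 were lower and 0 higher, where 10.7% of all measured genes were lower. Of those 5, Efnb2, Gja5 and Hey2 were detected in only the neonatal array of that pair, and Efnb2, an arterial ligand, was at least 5.73-fold lower. Gja5 and Hey2 of that list are also expressed by heart muscle cells.

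**Figure D4:**
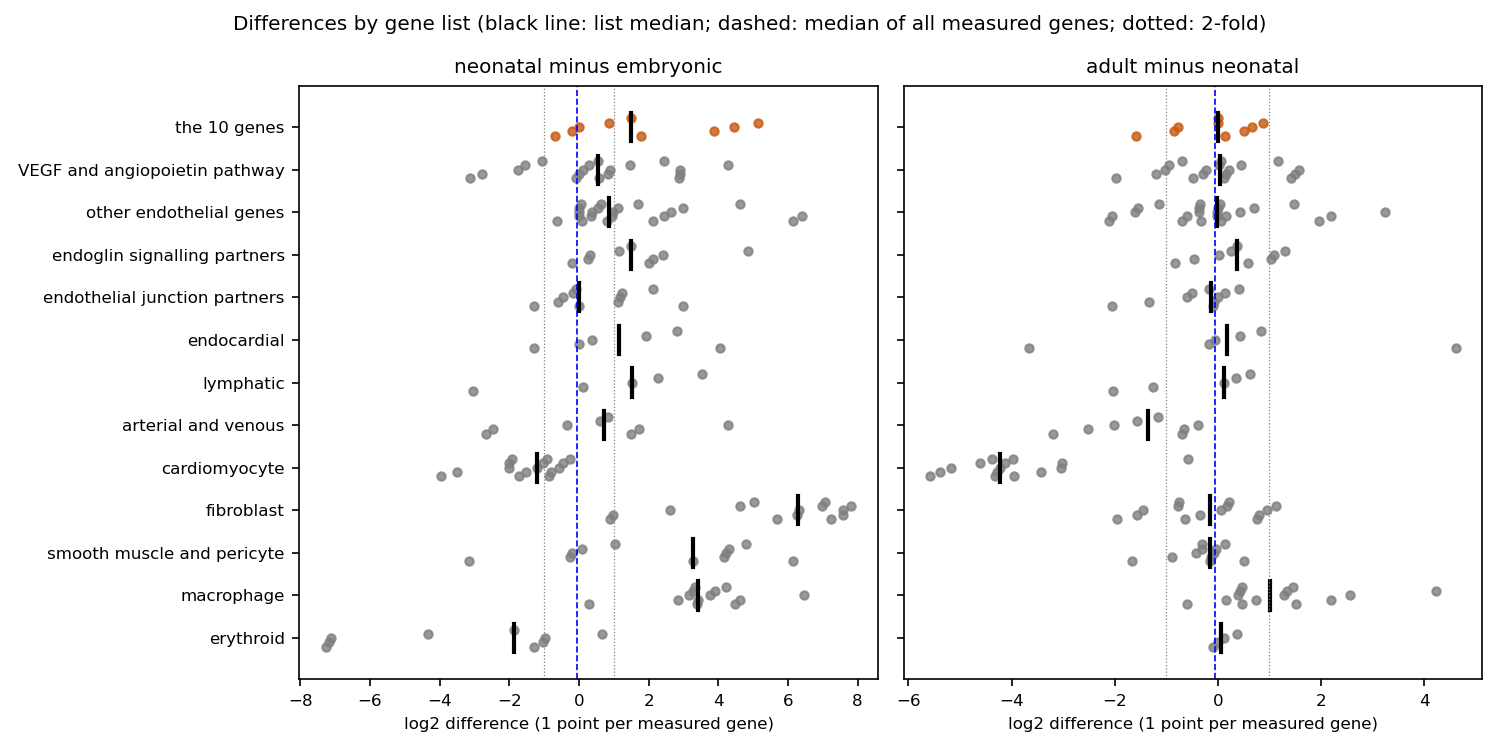
Log2 differences (horizontal axis) of measured genes by list, in neonatal minus embryonic and adult minus neonatal, 1 point per gene, with list medians as black lines, the median of all measured genes dashed and 2-fold dotted. The 10 genes spread from -0.70 to 5.13 in neonatal minus embryonic, where fibroblast markers have a median of 6.29, and from -1.58 to 0.88 in adult minus neonatal, where cardiomyocyte markers have a median of -4.23.

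Genes with the stage pattern most like that of Kdr and of Vegfa were taken by the distance between stage-centred log2 values over the 3 arrays, among 7774 other genes detected on all of them. Nearest to Kdr were Swt1, Ankhd1, Hebp1, Dus3l and Aplf, at distances of 0.00452 to 0.016. Nearest to Vegfa were Dapk3, Pecr, Mettl9, Cmtr2 and Prr5l, at 0.0116 to 0.026. With 3 points such likeness is common, since 761 genes lay within 0.25 of Kdr and 542 within 0.25 of Vegfa.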

How the data were processed

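RNA of 3 cardiomyocyte preparations was measured on Illumina bead arrays, with biotin-labelled cRNA per the labels' protocols. The authors deposited a raw table of linear intensity, with bead spread, bead number (an unnormalized value of another kind) and a detection score per probe, per the file headers. Detection p was taken as 1 minus the deposited score. The authors also deposited a processed intensity matrix with medians of 8.74 to 8.75, whose method the sources used here do not give. It served as an alternative, floored at 16.

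The raw intensity was background corrected from detection p with neqc steps of limma 3.58.1 in R 4.3.3 (offset 16), quantile normalized and put on a log2 scale. Quantile normalization hides a shift shared by all genes of an age. Names came from RefSeq (GRCm38.p6): 11875 probes matched by accession and 22852 by symbol, 134 conflicting probes were left out, and 11771 stayed unnamed. A gene was represented by its probe with the highest mean log2 value. Every other gene named is one at least 2-fold apart in some pair, or among a few that are not, in lists chosen, like the 10 genes, with earlier results of these data known. Bounds and calls were computed as the report states. Normalization and 2-fold calls, without the bounds, were tried on simulated arrays where few probes changed, equally up and down. That trial does not bear on the bounds or on shifts shared by many genes. Alternatives varied offset, background, normalization, detection rule, probe summary and fold.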

Additional observations from a re-analysis of the deposited data

How the results depend on the processing

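The neonatal against embryonic count of 5 members became 1, Esam, when detection on both arrays was required, and 3, Tek, Esam and Eng, with the mean over probes. It was between 5 and 7 under the other alternatives. The adult against neonatal count of 1 became 3 with median centring, which added Cdh5 and Esam to Egfl7, and 5 at 1.5-fold. It stayed at 1 otherwise, but with the mean over probes that gene was Pecam1, higher, in place of Egfl7, lower. The adult against embryonic count of 6 became 2, Esam and Egfl7, with detection on both arrays and was between 4 and 7 otherwise. Requiring both arrays leaves 4 members to count in each comparison with the embryonic array. Among 34 probe comparisons, 0 differences of at least 2-fold changed sign under the alternatives of background, scaling or values. For differences that are bounds this was fixed in advance, because a bound that turned against the detected side was set to 0. Only differences between 2 detected values could change sign. Smaller differences of that kind did, such as adult minus neonatal of Tek, Pecam1, Flt1 and Vegfa, which were below 0 with median centring.

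Scaling bears most on the adult array. Centring arrays on their medians over all probes moved the median of measured genes by 0.18 in neonatal minus embryonic, -0.73 in adult minus neonatal and -0.53 in adult minus embryonic. The genes called higher were then 61.3%, 9.91% and 28.3% of all calls in these pairs, against 50.7%, 51.0% and 48.3% with quantile normalization. Centring on probes detected on all arrays, chosen after seeing the data, gave 53.1%, 67.5% and 58.7%. No paired analysis was possible because each age has 1 array. Dim probes near background (Cdh5, Kdr, Flt1) limit what differences can be seen, and the number of arrays limits the precision of all of them.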
